A study of Mus musculus with 7 samples.

Results

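The Zfp genes are the mouse genes whose symbol is Zfp followed by a number, the naming series for zinc finger proteins. Members were the symbols of that form, with at most 1 letter after the number, that had at least 1 TPM, a level corrected for gene length and for the library total, in at least 3 of the 6 libraries taken at 24 h. The members were thus selected on their TPM at 24 h. There were 401 such symbols among 55367 in the tables, and 264 of them met the rule. Because of that choice, that these genes were expressed at 24 h is not a finding. Of all symbols, 11147 met the same rule and served as the background.

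Most Zfp proteins carry C2H2 zinc fingers, short loops in which a pair of cysteines and a pair of histidines hold a zinc ion, and tandem fingers read DNA sequence base by base. Many also start with a KRAB domain, which recruits the corepressor TRIM28 (KAP1), the histone methyltransferase SETDB1 and heterochromatin proteins to silence transposable elements and some imprinted genes. Others work without KRAB as promoter factors, and some bind RNA or ribosomes in place of DNA. Each finger holds structural zinc, and erythroid cells need zinc for GATA1, itself a zinc finger protein, and for many enzymes.

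Libraries came from G1E-ER4, 1 mouse erythroid progenitor line that lacks its own functional GATA1 and carries a GATA1 fused to the estrogen receptor ligand-binding domain, so that estradiol starts erythroid maturation. All groups share that background. The undifferentiated group was 1 library at 0 h. The control group was 3 libraries after 24 h with 100 nM β-estradiol. The DTPA group was 3 libraries after 24 h with the same estradiol and 50 µM DTPA, a chelator that binds zinc and other metals outside cells, added when differentiation began. The labels call the replicates biological, without saying how the cultures were separated.

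The estimated depth was 17.6 M reads at 0 h, 17.7 to 18.6 M in controls and 19.8 to 21.2 M under DTPA. All 11 erythroid markers were detected. Under DTPA 3 were higher than in controls and 6 lower, with a median log2 fold change of -0.33. Of all genes that met the rule, 21.7% were higher and 36.4% lower, with a median of -0.09. Of the erythroid markers, Gata1 (-1.28) and Slc4a1 (-3.38) were among the lower and Hbb-bt (2.12) among the higher. The Gata1 level may include RNA of the introduced GATA1 fusion, which gene totals cannot tell from the cell's own Gata1 RNA. Of 10 myeloid and lymphoid markers, 6 were at 0 in all libraries, and the summed level of the 10 was 3.39 to 4.25 TPM in controls and 4.05 to 5.37 TPM under DTPA. Of 8 megakaryocyte markers 2 were at 0 throughout, and their sum was 59.8 TPM at 0 h, 9.39 to 12.8 TPM in controls and 42.5 to 51.7 TPM under DTPA. The sum under DTPA thus lay between 0 h and the controls, as did Pf4 and Itga2b. Itgb3 and Gp9 were higher under DTPA than at 0 h, and Gp1ba was near its 0 h level. Gp5 was under 1 TPM in every 24 h library. The metallothionein genes Mt1 and Mt2, which respond to zinc, fell under DTPA by 3.65 and 7.66 on the log2 scale, and the zinc transporter genes Slc30a1 and Slc39a10 were higher by 0.53 and 2.93. All 10 proliferation markers fell under DTPA, from a sum of 1550 to 1660 TPM to 237 to 251 TPM. In bulk RNA, fewer cells of a type and less RNA per cell cannot be told apart. The part of cell-cycle state, erythroid stage or megakaryocyte markers in the results on Zfp genes was not tested.

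Of the 264 members, 262 had a coding sequence in the GENCODE M21 annotation (GRCm38). A KRAB A box was found in 137 of them, counted as at least 10 of 16 conserved positions, of which a tryptophan was required. Another 104 had at least 3 C2H2 fingers and no KRAB match, and 21 had fewer than 3 C2H2 fingers. Zfp267 had no gene model there and Zfp939 is annotated as a pseudogene. Of the scores, 135 were 13 or more, 122 were 5 or less and 5 fell between. The score was read from the longest coding sequence of each gene, so the class without KRAB may hold genes whose KRAB exon is not in that sequence. It may also hold genes whose box has another residue in place of that tryptophan. KRAB members had a median of 12 fingers, from 2 to 33, and C2H2 members without KRAB a median of 9, from 3 to 36.

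Both kinds of zinc site are shown here for 3 of the genes with the largest changes described below, because zinc binding is what the named genes have in common. The sequences are coding DNA read 5′ to 3′ from GRCm38, and the capitals mark the codons of the cysteines and histidines that hold zinc. Zfp790 finger 7 of 12 lies at chr7:29829323-29829385 on the plus strand in exon 5. Zfp27 finger 11 of 21 lies at chr7:29894934-29894996 on the minus strand in exon 5. Zfp36 has no C2H2 finger and 2 of the CCCH kind, in which the third cysteine takes the place of a histidine, and its finger 1 lies at chr7:28378158-28378217 on the minus strand in exon 2.
Zfp790: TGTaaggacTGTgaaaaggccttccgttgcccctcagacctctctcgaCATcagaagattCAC
Zfp27: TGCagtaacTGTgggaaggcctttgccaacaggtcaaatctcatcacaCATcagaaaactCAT
Zfp36: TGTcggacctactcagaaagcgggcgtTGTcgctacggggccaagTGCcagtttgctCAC

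Most members were expressed at low to moderate levels. The mean over the 6 libraries at 24 h ran from 0.942 to 249 TPM with a median of 11.8 TPM, against a median of 19.3 TPM for all genes that met the rule. There were 60 members with a mean under 5 TPM and 8 with a mean of 100 TPM or more. The 15 members that fell under 1 TPM in at least 1 library at 24 h include 3 that met the rule through the controls alone and 3 through DTPA alone, and those 6 had to differ between the groups. At the threshold, the third-highest value was 1.05 TPM for Zfp418, the lowest member, and 0.97 TPM for Zfp558, the highest Zfp gene left out. Together the members made up 0.471% of TPM at 0 h, 0.559% to 0.594% in controls and 0.604% to 0.619% under DTPA. KRAB members made up 0.149%, 0.201% to 0.224% and 0.21% to 0.228%.

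Of the 137 Zfp symbols left out, 64 were at 0 in all 7 libraries. In 19 of the others the 0 h library had at least 1 TPM, and in 18 of those 0 h was above every 24 h library. The rule asked for expression at 24 h, so genes lost on differentiation are missing from the counts below. The left-out genes with the highest 0 h levels were Zfp827 at 5.11 TPM, Zfp69 at 5.05 TPM, Zfp248 at 3.56 TPM, Zfp202 at 3.40 TPM and Zfp647 at 2.35 TPM. Their values at 24 h lay between 0.17 and 1.18 TPM; the low 24 h values and high 0 h values chose these genes, so no test is given.

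The highest levels at 24 h belonged to a few genes. Zfp207 encodes BuGZ, a protein of the spindle checkpoint and of splicing, and had 187.36 TPM at 0 h, 250.28, 254.27 and 272.73 TPM in the controls, and 240.24, 232.34 and 242.07 TPM under DTPA. The groups at 24 h did not overlap, and the difference was small, with a log2 fold change of -0.12 (limma adjusted p = 0.0488, SE 0.0441); the call was lost or reversed under most alternative settings. Zfp655, with 6 fingers, had 31.41 TPM at 0 h, 209.57, 212.52 and 228.57 TPM in the controls and 216.41, 195.86 and 198.99 TPM under DTPA. The 24 h groups of Zfp655 overlapped. Zfp217, a C2H2 repressor found in corepressor complexes with CtBP and LSD1, had 45.84 TPM at 0 h, 125.68, 118.7 and 125.0 TPM in the controls and 174.88, 188.48 and 197.14 TPM under DTPA. Zfp217 was thus lowest at 0 h and highest under DTPA, with no overlap (DTPA against control log2 fold change 0.60, limma adjusted p = 5.19e-05, SE 0.0528). Below these and Zfp36 and Zfp790 came Zfp592, Zfp445 and Zfp110, each with a mean over 100 TPM and none called between DTPA and control.

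**Figure D1:**
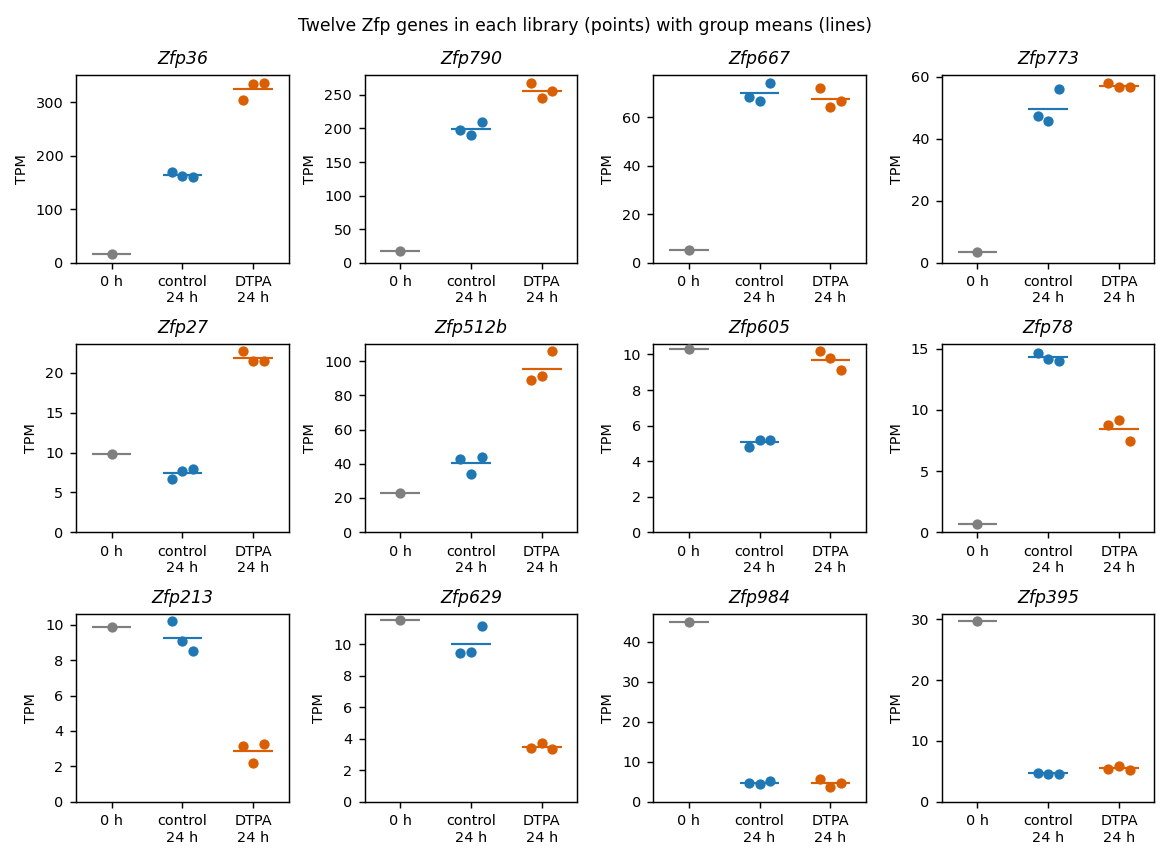
TPM (vertical axis, from 0) of 12 Zfp genes in the 0 h library, the 3 control and the 3 DTPA libraries at 24 h; each point is 1 library and each line a group mean. Zfp36 rises from 17.02 TPM at 0 h to at least 160.56 TPM in controls and at least 303.68 TPM under DTPA, while Zfp213 and Zfp629 are low only under DTPA.

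In the comparison of 24 h control with 0 h, called differentiation here, a minority of the members changed by large factors. No library was taken at 24 h without estradiol, so time in culture, estradiol and maturation cannot be told apart in comparisons with 0 h. With a limma adjusted p under 0.05 and at least 1 on the log2 scale, 39 of 263 tested members rose (14.8%) and 26 fell (9.89%). Of all genes that met the rule, 16.3% rose and 21.8% fell. The median log2 fold change of the members was 0.00, against -0.12 for all genes. The single library at 0 h is assumed to vary like the others, so each of these calls rests on 1 undifferentiated culture. Another scaling changed the balance of the calls: 60% of the members' calls were rises with TPM as deposited, 72.6% after median-of-ratios scaling and 80.3% after quantile normalization, against 42.8%, 50.8% and 53.0% over all genes. Those scalings moved the median of all genes from -0.12 to 0.02 and 0.06.

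The 5 members with the largest rise on differentiation all lie on chromosome 7, and 4 of them are KRAB genes. Zfp790 had 17.16 TPM at 0 h, 197.71, 190.53 and 209.88 TPM in the controls and 267.88, 245.14 and 256.31 TPM under DTPA. Every control library of Zfp790 was far above 0 h, with a log2 fold change of 3.46 (limma adjusted p = 6.34e-07, SE 0.0706), and the DTPA libraries were higher again, by 0.36 (limma adjusted p = 0.000615, SE 0.0511). Zfp667 had 5.34 TPM at 0 h, 68.57, 66.89 and 74.29 TPM in the controls and 72.32, 64.35 and 66.71 TPM under DTPA. It rose by 3.48 (limma adjusted p = 1.1e-06, SE 0.0864), and the 24 h groups overlapped. Zfp773 had 3.54 TPM at 0 h, 47.4, 45.66 and 55.95 TPM in the controls and 57.97, 56.64 and 56.75 TPM under DTPA. It rose by 3.47 (limma adjusted p = 2.56e-06, SE 0.112), and its 3 DTPA libraries were all just above the controls without passing the test (0.20, limma adjusted p = 0.0504). Zfp78 had 0.64 TPM at 0 h, from 19 reads, then 14.69, 14.21 and 13.98 TPM in the controls and 8.75, 9.19 and 7.46 TPM under DTPA. It rose by 3.22 (limma adjusted p = 4.37e-06) and was lower under DTPA than in controls by 0.70 on the log2 scale (log2 fold change -0.70, limma adjusted p = 0.000273).

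Zfp36 was the other of the 5. It encodes tristetraprolin, which binds AU-rich elements in messenger RNAs and recruits the deadenylation machinery, so that those RNAs decay. It had 17.02 TPM at 0 h, 169.02, 161.82 and 160.56 TPM in the controls and 303.68, 333.45 and 335.78 TPM under DTPA. The 3 groups were fully separate; 125 bases of its exons overlap Gm44710 on the opposite strand. Zfp36 rose by 3.19 on differentiation (limma adjusted p = 6.92e-07, SE 0.0676) and was higher under DTPA than in controls by 0.98 (limma adjusted p = 3.01e-06, SE 0.0495).

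The promoters of Zfp667 and Zfp773 are shown because both hold the core of the metal response element, the site read by the zinc-sensing factor MTF1. The core searched was TGCACNC or TGCGCNC on both strands, in the 300 bases from 250 before to 50 after the RefSeq start site (GRCm38.p6), and the capitals mark the matches. In Zfp773 the matches overlap each other. Zfp667 lies at chr7:6286330-6286629 on the plus strand and Zfp773 at chr7:7136706-7137005 on the minus strand.
Zfp667: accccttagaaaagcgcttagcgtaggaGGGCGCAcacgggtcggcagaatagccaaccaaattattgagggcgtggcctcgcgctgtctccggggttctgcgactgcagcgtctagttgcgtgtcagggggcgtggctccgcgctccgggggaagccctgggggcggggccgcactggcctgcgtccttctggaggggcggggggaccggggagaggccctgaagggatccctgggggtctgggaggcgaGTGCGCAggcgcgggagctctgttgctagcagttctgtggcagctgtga
Zfp773: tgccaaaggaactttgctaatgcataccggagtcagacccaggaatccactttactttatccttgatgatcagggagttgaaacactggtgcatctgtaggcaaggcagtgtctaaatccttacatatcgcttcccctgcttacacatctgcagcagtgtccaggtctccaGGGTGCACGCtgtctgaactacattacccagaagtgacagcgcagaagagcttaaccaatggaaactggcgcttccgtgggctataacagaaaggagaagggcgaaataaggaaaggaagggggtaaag

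A promoter entry was found for 227 of the 264 members. The metal response core was in 27.3% of them and in 25.6% of all 27025 promoters of the table. Among members that rose on differentiation it was in 14 of 34 promoters (41.2%), among members that fell in 5 of 20 (25%), and among members higher or lower under DTPA in 24.2% and 35.3%. Zfp667 and Zfp773 held 2 matches each, Zfp78 held 1, and Zfp790 and Zfp36 held none in this window. The GATA motif, searched as AGATAA or TGATAA on both strands, was in 11% of the members' promoters and 19% of all. The promoters of all genes include those of genes that did not meet the rule. The median share of G and C bases was 54.7% in the members' promoters and 52.7% in all. These are letter matches, no test was made, and the part of base content was not tested.

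The largest falls on differentiation came from members of all 3 protein classes. Zfp984, a KRAB gene, had 45.03 TPM at 0 h, 4.8, 4.36 and 5.11 TPM in the controls and 5.72, 3.63 and 4.68 TPM under DTPA. It fell by 3.00 on the log2 scale (limma adjusted p = 4.55e-05), and the 24 h groups overlapped. Zfp395 had 29.67 TPM at 0 h, 4.73, 4.6 and 4.59 TPM in the controls and 5.43, 5.93 and 5.23 TPM under DTPA. It fell by 2.44 (limma adjusted p = 4.68e-06). Zfp710 had 13.1 TPM at 0 h and 1.09, 1.63 and 1.04 TPM in the controls, a fall of 2.66 (limma adjusted p = 3.11e-05). Zfp428 had 18.89 TPM at 0 h and 3.02, 2.1 and 0.65 TPM in the controls, and the lowest of these rests on 5 reads. Its controls were scattered, and its call (fall of 2.86, limma adjusted p = 0.00182) carries the largest SE of the named genes, 0.459. Zfp692 had 45.94 TPM at 0 h, 9.39, 9.0 and 6.88 TPM in the controls and 14.18, 13.54 and 16.38 TPM under DTPA. It fell by 2.33 on differentiation (limma adjusted p = 7.64e-05), and the DTPA libraries were all above the controls and all below 0 h.

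**Figure D2:**
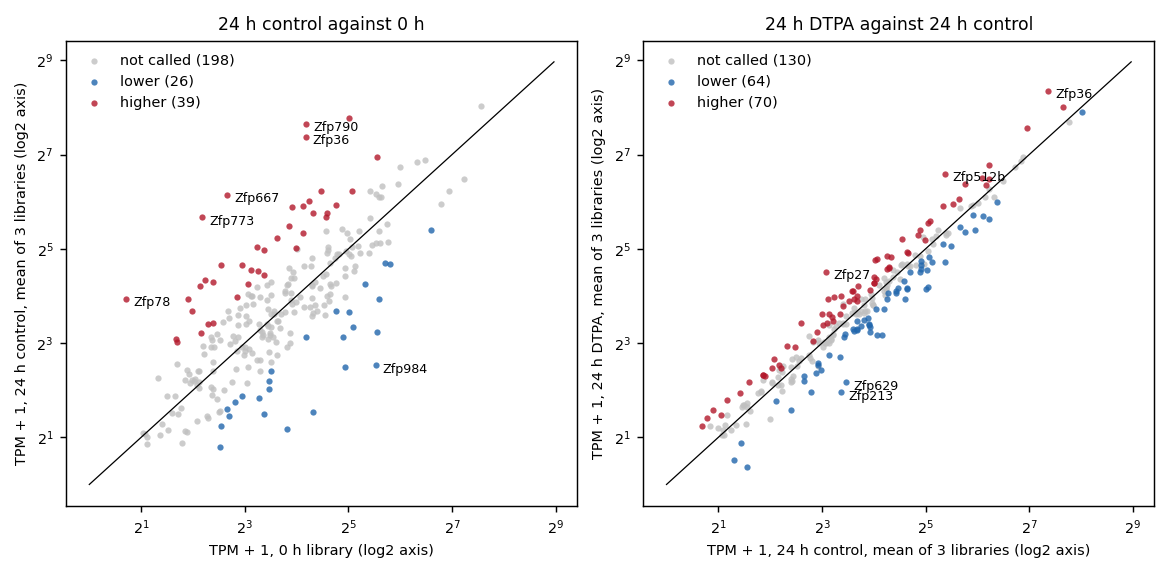
Level of each Zfp member as TPM + 1 on log2 axes, 24 h control against 0 h (left, 263 tested members) and DTPA against control at 24 h (right, 264 members), coloured by the limma call; the line marks equal levels. Calls on the left need at least 1 on the log2 scale, and the points spread more widely there than on the right, where most of the 70 higher and 64 lower members sit close to the line.

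Of 136 tested KRAB members 21 rose on differentiation (15.4%) and 9 fell (6.62%), beside 16.3% and 21.8% of all genes, with a median log2 fold change of 0.21. Of 104 C2H2 members without KRAB 13 rose and 11 fell (12.5% and 10.6%), with a median of -0.12 that became 0.01 and 0.14 under the 2 other scalings, and of 21 members with fewer than 3 C2H2 fingers 4 rose and 6 fell. After median-of-ratios scaling 25 KRAB members rose and 4 fell (18.4% and 2.94%), beside 18.8% and 18.2% of all genes. After quantile normalization 36 rose and 4 fell (26.5% and 2.94%), beside 20.2% and 18.0% of all genes. The 47 Zbtb, Zscan and Zkscan genes that met the same rule, which are related C2H2 families, had 4 rises and 7 falls. No test of the difference between classes was made. DTPA at 24 h, set against the same 0 h library, gave 49 rises and 32 falls among 264 members, beside 17.0% and 25.6% of all genes; 25 KRAB members rose and 12 fell.

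**Figure D3:**
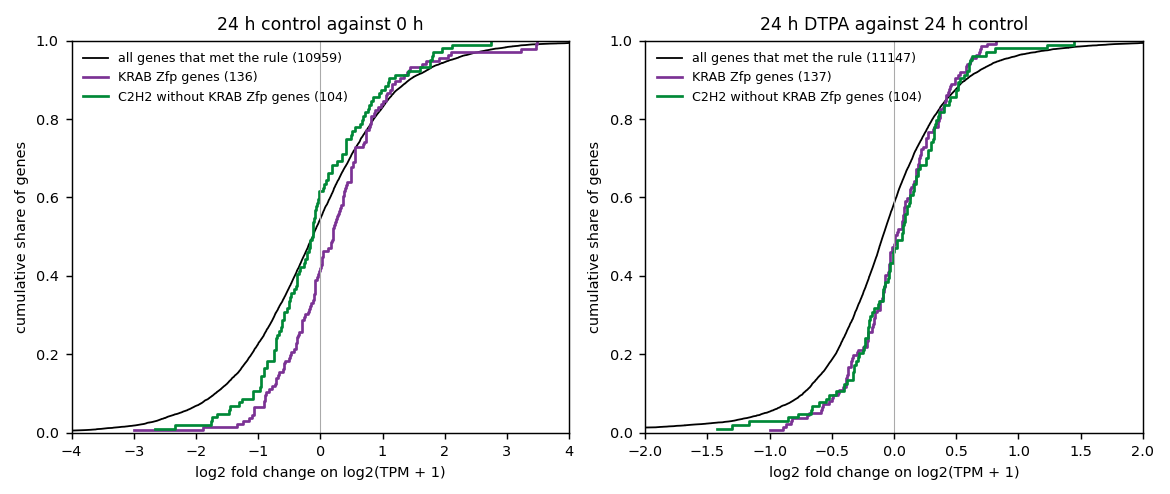
Cumulative share of genes (vertical axis) by log2 fold change on log2(TPM + 1) for KRAB members, C2H2 members without KRAB and all genes that met the rule, for 24 h control against 0 h (left) and DTPA against control (right). On the left the KRAB curve lies to the right of the others around its median of 0.21; on the right the 2 member curves run together, with medians of 0.01 and 0.06 against -0.09 for all genes.

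DTPA changed many members at 24 h, most of them by small amounts. With a limma adjusted p under 0.05, 70 members (26.5%) were higher under DTPA and 64 (24.2%) lower, and 130 were not called. Among all genes tested 21.7% were higher and 36.4% lower. Of the 134 called members 131 had no overlap between the control and DTPA libraries. Such separation goes with the call itself, and its share among all called genes was not counted. The median size of a called difference was 0.42 on the log2 scale, and 5 called members reached 1 on the log2(TPM + 1) scale, on which low genes move less than their TPM does, 2 higher and 3 lower, beside 972 such genes among all 11147. The median log2 fold change was 0.02 for the members and -0.09 for all genes. With median-of-ratios scaling or quantile normalization the calls were 92 higher and 46 lower, or 93 and 44, so rises made up 66.7% or 67.9% of calls in place of 52.2%; over all genes the share went from 37.3% to 48.3% or 50.7%, and the median from -0.09 to 0.00 or 0.01.

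Both KRAB members and the others had calls in each direction under DTPA. Among 137 KRAB members 34 were higher and 30 lower (24.8% and 21.9%), beside 21.7% and 36.4% of all genes. None reached 1 on the log2(TPM + 1) scale, on which Zfp930 came nearest and rounds to -1. In TPM, the mean of Zfp930 went from 16.9 in controls to 7.97 under DTPA. Zfp213, counted as without KRAB, matched 7 of the 16 KRAB positions, under the cut of 10. Among 104 C2H2 members without KRAB 31 were higher and 28 lower (29.8% and 26.9%), and among members with fewer than 3 C2H2 fingers 4 were higher and 6 lower (19% and 28.6%). The Zbtb, Zscan and Zkscan genes gave 11 higher and 11 lower of 47.

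Zfp27, a gene of 21 fingers at chr7:29893333-29906572 on the minus strand (GRCm38), had the largest rise under DTPA on the log2(TPM + 1) scale. It had 9.85 TPM at 0 h, 6.62, 7.71 and 7.98 TPM in the controls and 22.82, 21.45 and 21.52 TPM under DTPA. The DTPA libraries lay above all others, with a log2 fold change against control of 1.45 (limma adjusted p = 4.45e-06, SE 0.0792). Zfp512b had 22.71 TPM at 0 h, 42.93, 34.01 and 44.01 TPM in the controls and 89.2, 91.53 and 105.89 TPM under DTPA, which is 1.23 higher on the log2 scale (limma adjusted p = 5.03e-05, SE 0.108). The groups were separate; 263 bases of its exons overlap Uckl1os on the opposite strand. Zfp605, a KRAB gene, had 10.31 TPM at 0 h, 4.8, 5.2 and 5.19 TPM in the controls and 10.22, 9.78 and 9.15 TPM under DTPA (log2 fold change 0.82, limma adjusted p = 8.15e-05). Its controls were below all other libraries, and its DTPA libraries were near the 0 h value. Zfp784, Zfp959, Zfp692 and Zfp958 were higher by 0.70 to 0.81, each with DTPA libraries above every control library. Nearly all exon bases of Zfp784, 2041 of 2153, overlap the opposite-strand gene Zfp865, and the strand setting of the counting was not given in the sources used here, so its value is uncertain.

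Zfp213 and Zfp629 had the largest falls under DTPA on that scale. Zfp213 lies at chr17:23556767-23564238 on the minus strand (GRCm38), and had 9.89 TPM at 0 h, 10.23, 9.06 and 8.53 TPM in the controls and 3.15, 2.19 and 3.26 TPM under DTPA. It was low in the DTPA libraries and at like levels elsewhere, with a log2 fold change of -1.42 (limma adjusted p = 7.76e-05, SE 0.136), and 1250 bases of its exons overlap Gm26695 on the opposite strand. Zfp629, with 19 fingers, had 11.53 TPM at 0 h, 9.42, 9.49 and 11.14 TPM in the controls and 3.39, 3.71 and 3.33 TPM under DTPA. It showed the same order, with a log2 fold change of -1.30 (limma adjusted p = 1.94e-05, SE 0.0951). Zfp930, a KRAB gene, had 20.92 TPM at 0 h, 16.02, 15.55 and 19.05 TPM in the controls and 9.13, 6.9 and 7.87 TPM under DTPA (log2 fold change -1, limma adjusted p = 0.000204). The groups of Zfp930 did not overlap, and its log2 fold change before rounding was just under 1 in size. Zfp39, Zfp715, Zfp768, Zfp763 and Zfp719 were lower by 0.82 to 0.89 on the log2 scale, with no overlap. Zfp715 had 15.04 TPM at 0 h, 30.4, 29.74 and 33.02 TPM in the controls and 18.67, 15.12 and 16.04 TPM under DTPA, so its controls stood above all other libraries. Zfp41, chosen after its values were seen as the third member to fall by 1 or more on the log2(TPM + 1) scale, had 1.76, 1.82 and 2.17 TPM in the controls and 0.25, 0.27 and 0.36 TPM under DTPA, and met the rule through the controls alone.

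Members that act on RNA or ribosomes were taken from a list of 13, all measured. Under DTPA 3 were higher and 3 lower, beside 21.7% and 36.4% of all genes. After either of the other scalings 4 were higher and 1 lower. Of all genes, 27.5% were higher and 29.5% lower after median-of-ratios scaling, and 28.6% and 27.9% after quantile normalization. Zfp36 (above) had the largest change. Zfp106, an RNA-binding protein needed for motor neuron maintenance, had 121.62 TPM at 0 h, 74.44, 70.63 and 76.78 TPM in the controls and 109.12, 106.91 and 111.88 TPM under DTPA. The DTPA libraries lay between the controls and 0 h (DTPA against control 0.56, limma adjusted p = 3.24e-05); 2719 bases of its exons overlap Gm26899 on the opposite strand. Zfp830, a splicing-associated protein, had 61.47 TPM at 0 h, 81.17, 82.22 and 81.5 TPM in the controls and 61.23, 62.48 and 64.39 TPM under DTPA. Its DTPA libraries were at the 0 h level and below every control (log2 fold change -0.38, limma adjusted p = 0.00012). Zfp326, of the DBIRD splicing complex, and Zfp91, an E3 ubiquitin ligase, had log2 fold changes of 0.26 and -0.16 (limma adjusted p = 0.0371 and 0.0282). Both calls, and that of Zfp207, were lost under several alternative settings.

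On differentiation 2 of the 13 genes rose, Zfp36 and Zfp346, and 2 fell, Zfp598 and Zfp593, beside 16.3% and 21.8% of all genes. Zfp346 binds double-stranded RNA and had 17.91 TPM at 0 h and 64.02, 62.08 and 65.01 TPM in the controls (log2 fold change 1.77, limma adjusted p = 1.05e-06). Zfp598 is the ubiquitin ligase that marks collided ribosomes, and it had 95.44 TPM at 0 h, 42.49, 41.33 and 39.31 TPM in the controls and 37.2, 40.34 and 40.17 TPM under DTPA. It fell by 1.2 (limma adjusted p = 2.03e-05), and the 24 h groups overlapped. Zfp593, a factor of large ribosomal subunit assembly, had 28.93 TPM at 0 h and 7.64, 8.62 and 7.05 TPM in the controls, a fall of 1.77 (limma adjusted p = 0.000224). Zfp622, another factor of large-subunit assembly, had 18.58 TPM at 0 h and 14.12 to 15.32 TPM in controls and was not called.

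The list of chromatin and promoter factors had 14 genes. Of the 13 tested, 4 were higher and 4 lower under DTPA, beside 21.7% and 36.4% of all genes. After either of the other scalings 7 were higher and 3 lower, beside 27.5% and 29.5% of all genes after median-of-ratios scaling and 28.6% and 27.9% after quantile normalization. Zfp462 was at 0 in all libraries. The higher genes were Zfp217 (above), Zfp143, Zfp335 and Zfp451. Zfp143, a promoter factor also found at chromatin loop anchors, had 32.3 TPM at 0 h, 28.95, 26.23 and 28.43 TPM in the controls and 35.62, 39.07 and 39.55 TPM under DTPA (log2 fold change 0.44, limma adjusted p = 0.000641). Every DTPA library was above the others. Zfp335 and Zfp451, a SUMO ligase, were higher by 0.40 and 0.30. The lower genes were Zfp410, Zfp609, Zfp384 and Zfp292, with log2 fold changes of -0.47, -0.41, -0.33 and -0.20.

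Zfp410 has a known place in erythroid cells, where it activates Chd4, a subunit of the NuRD complex that keeps fetal-type globin genes silent. It had 14.84 TPM at 0 h, 31.52, 30.61 and 32.45 TPM in the controls and 22.64, 21.69 and 22.89 TPM under DTPA. The DTPA libraries lay between 0 h and the controls with no overlap. Zfp410 rose by 1.04 on differentiation (limma adjusted p = 2.2e-05, SE 0.0605) and was lower under DTPA with a log2 fold change of -0.47 (limma adjusted p = 0.00013, SE 0.05).

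Of 6 genes listed as KRAB zinc finger genes with known targets 4 were tested. Zfp809 silences murine leukaemia proviruses, and had 41.9 TPM at 0 h, 48.24, 46.34 and 52.82 TPM in the controls and 66.6, 65.38 and 66.16 TPM under DTPA. Its DTPA libraries were above all others (log2 fold change 0.42, limma adjusted p = 0.000403). Zfp568 represses a placental transcript of Igf2, and had 29.75 TPM at 0 h, 23.8, 22.03 and 24.15 TPM in the controls and 13.93, 13.92 and 14.73 TPM under DTPA. Its DTPA libraries were below all others (log2 fold change -0.68, limma adjusted p = 5.05e-05). Zfp445, which protects imprints, had 114.95, 106.15 and 122.25 TPM in the controls and 118.78, 110.45 and 116.98 TPM under DTPA, and Zfp932, a repressor of endogenous retroviruses, had 10.16 to 12.34 TPM and 10.29 to 12.41 TPM; neither was called. The imprint protector Zfp57 was listed at 0 in 6 libraries and at 0.04 TPM in the other one, and Zfp708, for which no KRAB match was found in the coding sequence used, was at 0 in all.

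A last list held 4 genes linked to blood, stem cells or zinc. Zfp367, known in human erythroid cells as the globin activator ZFF29, had 13.93 TPM at 0 h, 13.07, 14.55 and 14.58 TPM in the controls and 9.76, 9.29 and 9.39 TPM under DTPA. Its DTPA libraries were below all others (log2 fold change -0.52, limma adjusted p = 0.000419); 603 bases of its exons overlap Gm47513 on the opposite strand. Zfp658, whose human counterpart represses transcription in response to zinc, was below the rule, with 1.31 TPM at 0 h, 0.19, 0.1 and 0.1 TPM in the controls and 0.66, 0.34 and 0.44 TPM under DTPA. All DTPA libraries lay between the controls and 0 h, at few reads, and that difference was not tested. Zfp42 and Zfp521 were at 0 in all libraries.

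Zfp genes lie in clusters that arose by duplication, and neighbours did not all move together. Members closer than 200 kb to the next Zfp gene formed 10 runs of 5 or more, which held 93 of the 264. Chromosome 7 carried 72 members and chromosome 17 carried 38. On differentiation the run from Zfp712 to Zfp273 on chromosome 13 had 5 rises and 1 fall among 18 members, with a median log2 fold change of 0.52, or 8 rises, no fall and a median of 0.82 after quantile normalization. The run from Zfp787 to Zfp28 on chromosome 7, which holds Zfp667 and Zfp78, had 3 rises among 5. The run from Zfp180 to Zfp575 on chromosome 7 holds 8 members with no KRAB match in the search used, which required the tryptophan. It had 3 falls and no rise with a median of -0.86, or -0.55 with 2 falls after quantile normalization. Its log2 fold changes ran from -2.86 to 0.19. Over all genes 16.3% rose and 21.8% fell on differentiation, or 20.2% and 18.0% after quantile normalization.

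Under DTPA, the run from Zfp871 to Zfp101 on chromosome 17 had 5 lower and no higher member among 11 KRAB genes, with a median of -0.16; 36.4% of all genes were lower, so this count is near the background. After median-of-ratios scaling that run had 1 higher and 3 lower with a median of -0.07, beside 27.5% and 29.5% of all genes. After quantile normalization it had 1 and 2 with a median of -0.08, beside 28.6% and 27.9%. The run from Zfp84 to Zfp146 on chromosome 7, with 12 members, had 7 higher and 3 lower, beside 21.7% and 36.4% of all genes. That run holds Zfp27 and Zfp790, which were higher, and Zfp568, which was lower. The runs were formed by position alone, and no test of a run was made.

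**Figure D4:**
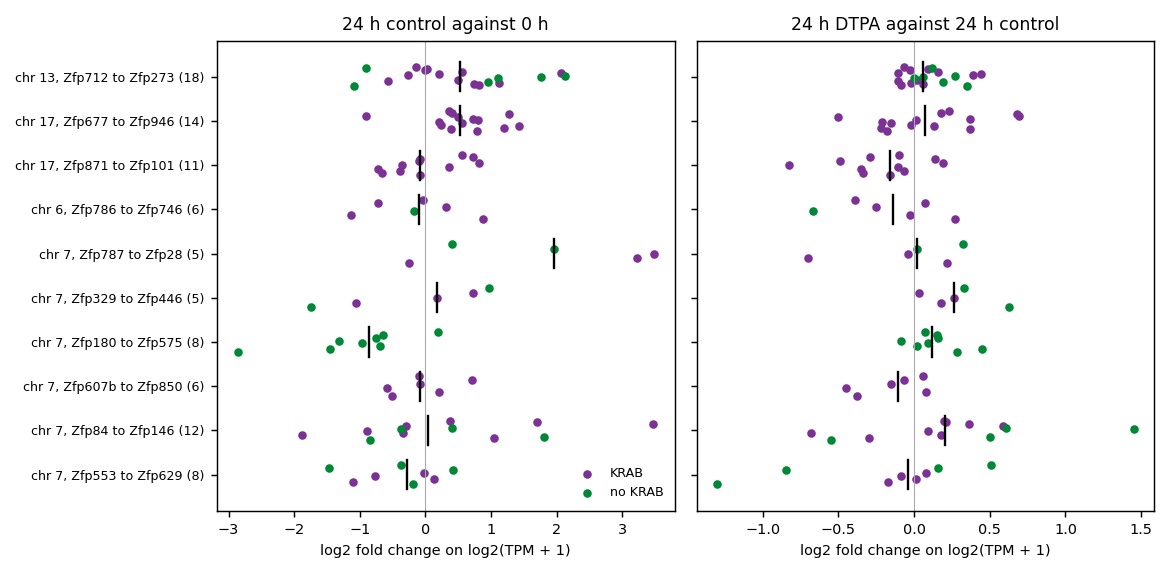
Log2 fold change on log2(TPM + 1) of the members in each of 10 runs of neighbouring Zfp genes, for 24 h control against 0 h (left) and DTPA against control (right); points are members, coloured by KRAB match, bars are run medians and the number of members is in brackets. The chromosome 7 run from Zfp180 to Zfp575 has a median of -0.86 on the left, and the chromosome 17 run from Zfp871 to Zfp101 a median of -0.16 on the right.

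Near-identical copies limit some members. There were 12 members whose protein was over 90% identical to that of another Zfp gene, among them Zfp991, Zfp992 and Zfp993 at 99.0% to 99.7%, and how reads with several matches were counted was not given in the sources used here. Of these 12, 3 were called higher and 4 lower under DTPA. Among the named genes, Zfp959 (88.3% identical to Zfp119b) and Zfp984 (87.9% identical to Zfp993) lay just under that cut, so the same limit may touch them. Exons of 67 members overlap an exon on the opposite strand, and 22 of those were called higher and 15 lower under DTPA, beside 26.5% and 24.2% of all members. Among the named genes not yet marked so, the longest overlaps were 1627 bases for Zfp593, 1107 for Zfp335, 444 for Zfp39, 254 for Zfp687, 231 for Zfp428 and 225 for Zfp410.

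The KRAB pathway needs partners besides the KRAB zinc finger genes. Of a list of 21 genes of the silencing machinery, 20 were tested. On differentiation none rose and 12 fell, with a median log2 fold change of -1.41, beside 16.3% and 21.8% of all genes. The proliferation markers fell in the same comparison, 7 of 10 of them, with a median of -1.49 and a sum of 3450 TPM at 0 h and 1550 to 1660 TPM in controls, and their part in the falls of the silencing genes was not tested. Trim28, which binds the KRAB domain directly, had 684.7 TPM at 0 h, 137.77, 135.62 and 143.62 TPM in the controls and 78.26, 93.65 and 91.05 TPM under DTPA. The 3 groups were separate, with a log2 fold change of -2.29 on differentiation (limma adjusted p = 7.76e-06, SE 0.102) and -0.66 under DTPA (limma adjusted p = 0.00013, SE 0.0698). Setdb1, which adds the repressive methyl marks on histone H3, had 234.07 TPM at 0 h, 50.58, 49.86 and 55.96 TPM in the controls and 61.95, 65.95 and 66.48 TPM under DTPA. It fell on differentiation by 2.15 and was higher under DTPA than in controls by 0.31 (limma adjusted p = 0.00255).

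Under DTPA 9 of the 20 tested genes of the list were lower than in controls and 3 higher, beside 36.4% and 21.7% of all genes. After median-of-ratios scaling 9 were lower and 6 higher, beside 29.5% and 27.5% of all genes. After quantile normalization 9 were lower and 7 higher, beside 27.9% and 28.6%. On the log2(TPM + 1) scale the largest falls were those of Uhrf1, a partner of DNA methyltransferase 1, from 44.27 to 45.41 TPM in controls to 3.2 to 4.51 TPM, and of Cbx5, which encodes the heterochromatin protein HP1α, from 63.28 to 71.36 TPM to 15.64 to 16.58 TPM. Suv39h2, from 1.94 to 2.41 TPM in controls to 0.26 to 0.54 TPM, and Dnmt1 had log2 fold changes of -1.22 and -1.01. Uhrf1 and Dnmt1 serve DNA replication as well as silencing, and the proliferation markers fell in the same libraries; their part in these falls was not tested.

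**Figure D5:**
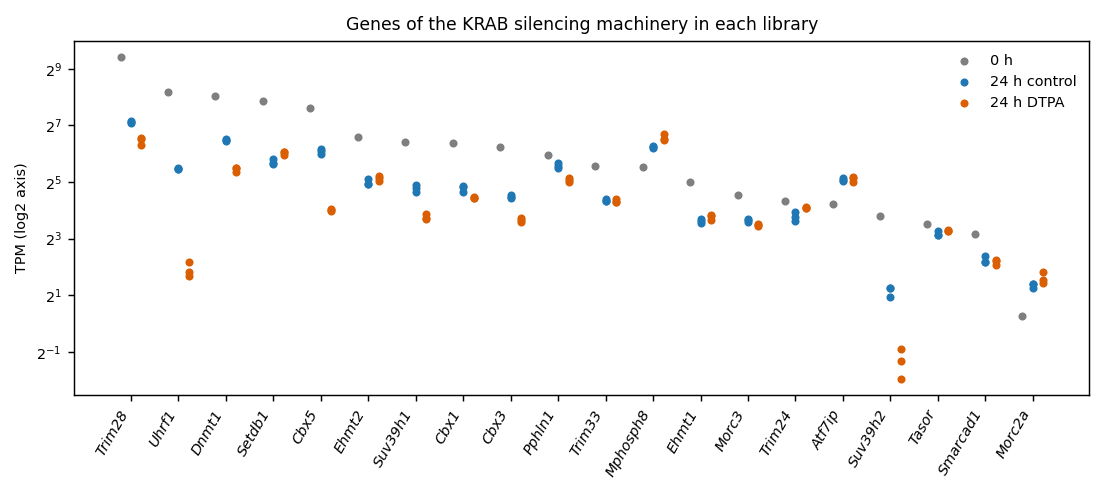
TPM on a log2 axis of 20 genes of the KRAB silencing machinery, ordered by their 0 h level; each point is 1 library, coloured by group. Trim28 is at 684.7 TPM at 0 h and at 78.26 to 143.62 TPM at 24 h, and Uhrf1 falls from 291.5 TPM at 0 h to at most 4.51 TPM under DTPA.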

How the data were processed

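The authors deposited 1 table per library with a TPM value (a level per gene length, scaled to the same total) for each of 55487 rows. The submitters' processing notes name Trimmomatic 0.33, FastQC, HISAT2 2.1.0, featureCounts and edgeR, with build mm10. Rows of the same symbol were summed. Depth was estimated from the steps of low TPM values times GENCODE M21 exon lengths, and 1 read in a 2 kb gene was worth 0.0698 to 0.086 TPM. Log2 values of TPM + 1 were tested in R 4.3.3 by limma 3.58.1, two-sided and with a variance trend, with Benjamini-Hochberg adjustment over all tested genes and a threshold of 0.05; the log2 scale with a pseudocount of 1 understates changes of low genes. DTPA against control used 6 libraries. Comparisons with 0 h used all 7 libraries in 3 groups and also needed a log2 fold change of at least 1. The script was tested on simulated data. Fingers and KRAB boxes were searched in the longest GENCODE M21 coding sequence, in place of the RefSeq protein first planned.

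Named genes were the 8 highest and 8 lowest called members by fold under DTPA with at least 3 TPM in the higher group and separate groups, the 5 highest by level, the 5 largest rises and falls on differentiation, the members on 4 role lists, 5 left-out genes and up to 4 partner genes per comparison. The members and lists were chosen with earlier results of these data known. Alternatives were other pseudocounts, filters, scalings, sample sets, a replicate block and other rules for members.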

Additional observations from a re-analysis of the deposited data

How the results depend on the processing

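Counts of called members under DTPA stayed within 1.5 times of 70 higher and 64 lower in all alternatives tried, and leaving out 1 library gave 51 to 63 higher and 49 to 64 lower. The falls on differentiation depended on the settings: 26 became 17 with median-of-ratios scaling, 12 with a pseudocount of 5, 15 with quantile normalization and 17 without members that overlap an opposite-strand exon, where fewer members were tested. The 39 rises became 61 with quantile normalization. For DTPA against 0 h, the 32 falls became 20, 13 and 17 with median-of-ratios scaling, a pseudocount of 5 and quantile normalization, and the 49 rises became 30 with a pseudocount of 5 and 75 with quantile normalization. A larger pseudocount shrinks the fold of low genes by construction; for the scalings the cause was not tested. Zfp207 reversed under DTPA with quantile normalization, with a log2 fold change of 0.046, and its call was lost in 11 of the other alternatives of 16; the calls of Zfp91, Zfp292 and Zfp326 were lost in 8, 6 and 6, and Zfp773 passed in 6. Of 115 results on named genes 91 kept direction and call in all alternatives. With the replicate number as a block, 61 members were higher and 56 lower. Deviations of same-numbered libraries correlated at -0.0103, 0.0242 and -0.00964, and not every library correlated best with its own number. These values showed no pairing by number, and they cannot exclude that same-numbered cultures were set up together. Depth limits the 19 members with a median under 50 reads.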
